A study of Mus musculus with 18 samples.

Results

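Liver gene expression of mice that ate a high-fat diet under calorie restriction (HF+CR) was compared with that of mice that ate the same diet and ran on a wheel (HF+Ex), across all genes measured. The 6 arrays, HF+CR 1 to 3 and HF+Ex 1 to 3, were chosen by their titles from a series of 18, and each array held liver RNA of a separate mouse. All mice were males of C57BL/6J, an inbred laboratory strain, were housed individually, started their regimen at 5 weeks of age and were sampled at 62 weeks. HF+CR mice received the high-fat diet (60% fat) with 30% calorie restriction, set from the intake of the unrestricted mice on that diet. HF+Ex mice ate the high-fat diet, with no restriction stated, and could use a running wheel at will, so that the groups differ in food supply and in activity at the same time. The other groups, with 3 mice each, ate the high-fat diet freely without a wheel (HF) or had the same 3 regimens on a low-fat diet with 10% fat (LF+CR, LF+Ex and LF). The comparison asks in which genes restriction and voluntary running differ when dietary fat is the same, and the low-fat groups ask whether that difference depends on the diet. Neither the hour of sampling nor whether the mice had eaten is stated in the sources.

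The liver makes cholesterol and fatty acids under the control of the SREBP transcription factors, SREBP-2 mainly for cholesterol and SREBP-1c, which insulin raises, mainly for fatty acids. It burns fatty acids in mitochondria and peroxisomes under the nuclear receptor PPARα, and it stores them in lipid droplets, whose coat and fusion proteins belong to the perilipin and CIDE families. Many mouse liver genes are expressed at different levels in males and females, because the pituitary secretes growth hormone in pulses in males and more evenly in females. Calorie restriction limits the supply of energy and running raises its use, and both are known to reduce liver fat on high-fat diets.

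Intensities per probe set, a measure of fluorescence on a linear scale, ran from 31.08 to 21653.9. Each gene was represented by 1 probe set, and 14198 genes lay above the dim limit, the 40th percentile of an array (88.22 to 97.574), on at least 3 arrays. The first principal component carried 26.6% of the variance, and on it the HF+CR arrays lay at -14.5, -10.3 and -8.67 and the HF+Ex arrays at 3.22, -1.45 and 19.2, the last being HF+Ex 3. Clps, a transcript of pancreatic acinar cells that encodes colipase, read 50.1, 47.4 and 50.3 on the HF+CR arrays and 730, 50.2 and 45.9 on HF+Ex 1, 2 and 3. The difference between the clock genes Arntl and Dbp, which peak at opposite times of day, was -3.50, -3.87 and -2.13 on the log2 scale in HF+CR and -3.78, -3.33 and -3.66 in HF+Ex. HF+Ex 1, HF+Ex 3 and HF+CR 3 therefore stood apart in 1 of these measures each. HF+Ex 3 and some other arrays also stood apart in the sums of cell type markers given below.

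Of the 14198 genes, 386 differed between HF+CR and HF+Ex livers at an adjusted p under 0.05 in limma, a linear model with moderated variances, after Benjamini-Hochberg adjustment (2.72% of the genes tested). In HF+CR livers 200 genes were higher (1.41%) and 186 lower (1.31%). These 386 are meant below by called genes, and for all of them the 3 HF+CR values and the 3 HF+Ex values did not overlap, which held for 28.6% of all genes. The changes were mostly small: the median size was 0.42 on the log2 scale, and 49 called genes reached a 2-fold difference, 21 upwards and 28 downwards. The number of arrays limited the precision, with a median standard error of 0.0853 and a median SD between mice of 0.0943 in HF+CR and 0.0839 in HF+Ex on the log2 scale. The number of calls depended on single mice: it was 126 without HF+Ex 3, 138 without HF+Ex 1, 159 without HF+CR 1 and 171 without HF+CR 2. It rose to 437 without HF+Ex 2 and to 471 without HF+CR 3. Without the 4 arrays of the series with pancreatic transcripts, of which HF+Ex 1 is 1, it was 40. The others of these 4, LF 1, LF+CR 1 and LF+Ex 3, enter this comparison only through the estimated variance. The sign of the difference was the same for all 386 genes in each of these fits. Leaving out arrays could not change it, since the groups did not overlap. With arrays centred on their median, 90 genes were higher and 244 lower, since the median gene of the deposited values lay 0.05 higher in HF+CR on the log2 scale.

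**Figure D1:**
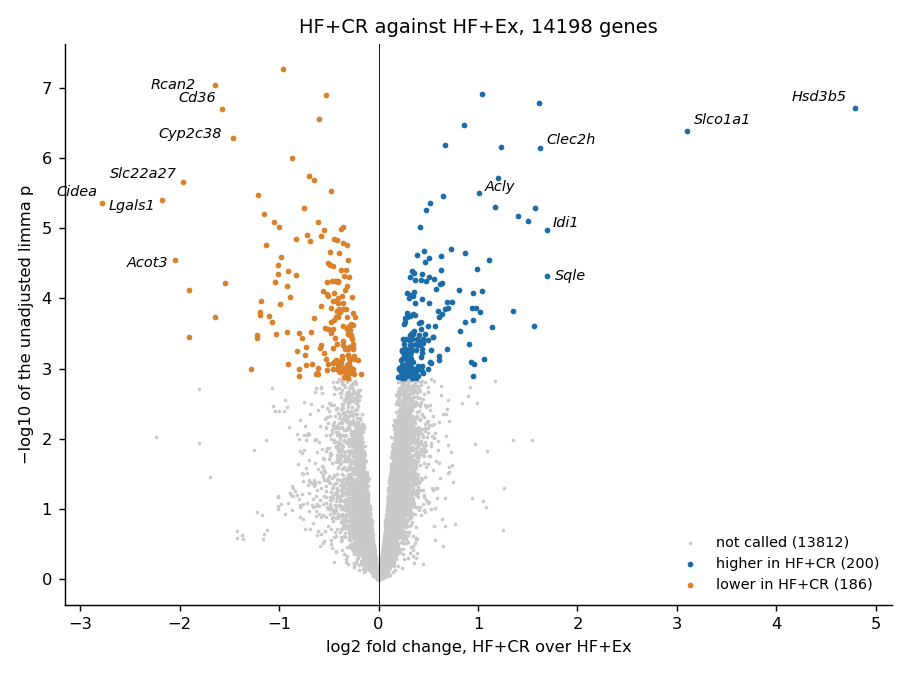
Each point is 1 of 14198 genes. The horizontal axis is the log2 fold change of HF+CR over HF+Ex and the vertical axis the negative log10 of the unadjusted limma p. Blue points (200) were higher and orange points (186) lower in HF+CR at an adjusted p under 0.05, and Hsd3b5 and Slco1a1 lie far to the right of the others.

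Among 34 lists of pathway genes, 9 had at least 3 called members. In HF+CR livers 14 of 17 genes of cholesterol synthesis were higher, as were 5 of 23 genes of fatty acid and triglyceride synthesis and 5 of 18 genes with higher expression in male liver. Lower were 8 of 24 genes of lipid droplets and fatty acid uptake, 6 of 18 genes of peroxisomal and microsomal fatty acid oxidation and 5 of 16 genes with higher expression in female liver. In complement and coagulation 3 of 24 genes were called, all higher. Of 18 xenobiotic cytochromes and regulators 1 was higher and 3 lower, and of 11 urea cycle and ammonia genes 1 was higher and 2 lower. Of all genes tested 2.72% were called, a share under 1 gene in each of these 9 lists. The median log2 fold change was 0.96 for cholesterol synthesis and -0.66 for the female-biased genes, beside 0.05 over all genes tested, and that of the female-biased genes was -0.42 without HF+Ex 1. The members were chosen with earlier results of the series known, and some genes stand in more than 1 list (Acot3, C6, C8b and Cyp7b1 among the called ones).

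**Figure D2:**
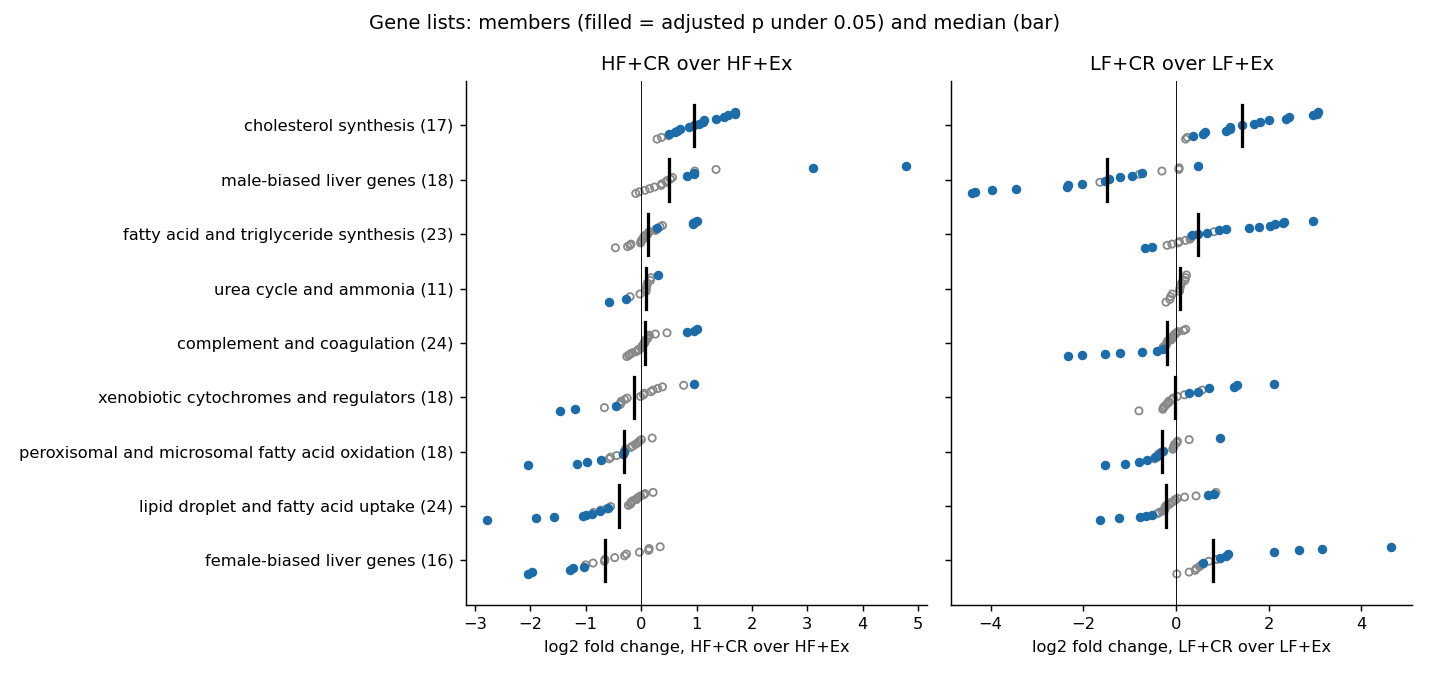
Log2 fold changes of the members of 9 gene lists, in HF+CR over HF+Ex on the left and in LF+CR over LF+Ex on the right. Each point is a gene, filled where its adjusted p is under 0.05, each bar is the list's median, and the number of genes tested stands in parentheses. The cholesterol list lies to the right of 0 in both panels, and the male-biased and female-biased lists change sides.

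Cholesterol synthesis was the list with the most called members. Enzymes from the early to the last steps were higher in HF+CR livers: Hmgcs1, Mvk, Pmvk, Idi1, Fdps, Fdft1, Sqle, Lss, Cyp51, Msmo1, Nsdhl, Hsd17b7, Sc5d and Dhcr7 all passed the test. Mvd, Tm7sf2 and Ebp had positive differences (0.37, 0.50 and 0.29 on the log2 scale) that did not pass. The list holds 20 genes, of which 3 had no probe set of their own and were not analysed here.

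Idi1, which isomerises the isoprene building block of sterols, read 1823, 2087 and 2222 in HF+CR livers, against 601, 603 and 659 in HF+Ex livers. Every restricted mouse lay above every running mouse, and the difference was 1.69 ± 0.27 on the log2 scale (± is the moderated SE throughout, n = 3 mice per group, limma adjusted p = 0.00371). Sqle, squalene epoxidase and a rate-controlling enzyme of the pathway, read 862, 1253 and 1123 in HF+CR against 337, 250 and 387 in HF+Ex, a difference of 1.69 ± 0.30 (limma adjusted p = 0.00871). Nsdhl, a sterol dehydrogenase, read 1599, 1796 and 1709 in HF+CR against 559, 531 and 592 in HF+Ex, and Cyp51, lanosterol 14-alpha-demethylase, read 1303, 1622 and 1560 against 517, 504 and 526. For these 2 genes the differences were 1.57 and 1.50 on the log2 scale, with limma adjusted p-values of 0.00256 and 0.00337. The values within a group were close for all 4 genes, and the lowest HF+CR value was above the highest HF+Ex value by more than the spread within either group.

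The other called differences of the list lay between 0.51 for Mvk and 1.35 for Fdps on the log2 scale, with 0.96 for Hmgcs1, which feeds acetyl units into the pathway, and 1.11 for Dhcr7, which makes cholesterol itself in the last step. Averaged over the 17 members, the level was 10.1, 10.4 and 10.3 (log2) on the HF+CR arrays, against 9.34, 9.29 and 9.34 on the HF+Ex arrays. The HF arrays read 9.55, 8.87 and 9.41, so that running mice lay within the range of the mice without a wheel. Srebf2, which encodes the SREBP-2 factor, differed by 0.16 ± 0.06 and was not called (limma adjusted p = 0.142). None of the 14 tested genes of cholesterol sensing, uptake and efflux was called, where the 2.72% called of all genes is under 1 gene in such a list. Abcg5, a subunit of the sterol exporter, differed by 0.48 (limma adjusted p = 0.139). Without HF+CR 2, 9 members were called. Without HF+Ex 1 alone 11 were called, and without all 4 arrays with pancreatic transcripts 3. The median difference was 0.91 in both of the latter fits. All 17 differences were positive in each fit, which was fixed in advance, since the groups did not overlap for any member.

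The promoters of 4 of these genes are shown because their members moved together. Each sequence is the 250 bases before the annotated start of the gene from RefSeq, build GRCm38.p6, read 5′ to 3′ on the strand of the gene, with matches to 2 motifs on either strand in capitals: CCAAT, the box bound by the factor NF-Y (ATTGG on the other strand), and TCACNCCAC, a form of the site bound by SREBP. The 2 motifs do not overlap in these windows.
Idi1: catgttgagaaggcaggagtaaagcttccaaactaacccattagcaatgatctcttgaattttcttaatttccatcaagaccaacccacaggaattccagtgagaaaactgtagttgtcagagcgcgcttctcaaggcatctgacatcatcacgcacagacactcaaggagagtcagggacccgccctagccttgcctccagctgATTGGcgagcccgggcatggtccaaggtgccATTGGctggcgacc
Nsdhl: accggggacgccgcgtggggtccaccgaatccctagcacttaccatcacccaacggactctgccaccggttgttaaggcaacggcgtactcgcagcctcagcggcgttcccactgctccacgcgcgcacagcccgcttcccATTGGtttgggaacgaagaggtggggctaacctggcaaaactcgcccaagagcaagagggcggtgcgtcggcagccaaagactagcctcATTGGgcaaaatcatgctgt
Cyp51: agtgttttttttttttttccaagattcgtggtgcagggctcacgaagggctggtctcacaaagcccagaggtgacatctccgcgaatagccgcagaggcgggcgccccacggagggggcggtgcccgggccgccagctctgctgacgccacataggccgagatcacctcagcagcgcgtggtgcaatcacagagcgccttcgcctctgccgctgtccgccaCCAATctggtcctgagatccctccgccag
Hmgcs1: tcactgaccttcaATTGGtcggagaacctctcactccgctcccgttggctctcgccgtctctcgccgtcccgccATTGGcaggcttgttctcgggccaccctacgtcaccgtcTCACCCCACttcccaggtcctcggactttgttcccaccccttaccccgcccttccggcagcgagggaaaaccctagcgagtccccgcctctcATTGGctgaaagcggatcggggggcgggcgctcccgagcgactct
The windows lie at chr13:8885356-8885605 on the plus strand for Idi1, chrX:72918271-72918520 on the plus strand for Nsdhl, chr5:4104698-4104947 on the minus strand for Cyp51 and chr13:119690101-119690350 on the plus strand for Hmgcs1. CCAAT boxes lay 45 and 14 bases before the start of Idi1, 109 and 20 before Nsdhl, 29 before Cyp51, and 237, 176 and 45 before Hmgcs1, whose SREBP site lay 137 bases before the start. All 14 tested members of the cholesterol list with a window held a CCAAT box. This held for 39.6% of 11393 tested genes with a window and 37.5% of all 27025 genes with a window. The SREBP form was found in 1 of the 14 genes, in 1.3% of the tested genes and in 1.2% of all genes. The box was present in 7 of 20 lipid droplet genes with a window, 4 of 14 male-biased genes and 5 of 14 female-biased genes. A gene was counted if any of its windows held a match. A match is a description of the letters and not of binding.

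In fatty acid and triglyceride synthesis 5 of 23 genes were higher in HF+CR livers and none lower. Acly, which makes cytosolic acetyl-CoA from citrate, read 1679, 2026 and 1687 in HF+CR livers against 809, 846 and 1002 in HF+Ex livers, a difference of 1.01 ± 0.14 (limma adjusted p = 0.00212). Fasn, fatty acid synthase, read 1664, 1805 and 1823 in HF+CR against 778, 816 and 1179 in HF+Ex, a difference of 0.94 ± 0.19 (limma adjusted p = 0.0148). Srebf1, which encodes SREBP-1, read 1704, 2214 and 1837 against 1024, 910 and 949, a difference of 0.98 ± 0.20 (limma adjusted p = 0.0148). In these 3 genes the groups did not overlap, and HF+Ex 3 had the highest Fasn value of the running mice.

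Acss2, which activates acetate, and Slc25a1, the mitochondrial citrate carrier, were also called, with differences of 0.93 and 0.29. The carboxylase Acaca (0.26), the elongase Elovl6 (0.12) and the stearoyl-CoA desaturase Scd1 (-0.18) were not called, and the median of the 23 genes was 0.12. That median was 0.02 without HF+Ex 2, 0.04 without HF+CR 2 and 0.05 with arrays centred. The call of Fasn was lost without HF+Ex 1 (limma adjusted p = 0.0792) or HF+CR 2 (0.0557), that of Srebf1 without HF+Ex 3 (0.0606) or HF+CR 2 (0.0728), and that of Acss2 without any 1 of the 6 arrays (0.0580 to 0.145). The list had 2 called members without HF+CR 2 and 3 without HF+Ex 1 or HF+Ex 3.

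Of 24 genes of lipid droplets and fatty acid uptake 8 were lower in HF+CR livers and none higher. Cidea, which encodes a lipid droplet fusion protein of adipocytes that also appears in fatty liver, read 70.3, 67.5 and 87.5 in HF+CR livers, against 394, 409 and 1361 in HF+Ex livers. All 3 restricted mice lay under the dim limit and HF+Ex 3 stood far above the other running mice, whose values were still well above those of any restricted mouse. The difference was -2.78 ± 0.40 (limma adjusted p = 0.0024) on the scale of log2(intensity + 16), and it was -3.00 with an offset of 1 and -2.28 with an offset of 64, since a level under the dim limit gives only a bound. Cidec, its relative in large droplets, read 66.6, 71.5 and 74.3 in HF+CR, also under the limit, against 247, 188 and 618 in HF+Ex (-1.90, limma adjusted p = 0.0107). In bulk tissue, fewer cells of a type and less RNA per cell cannot be told apart.

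Cd36, the fatty acid translocase, read 575, 788 and 846 in HF+CR livers against 2003, 1954 and 2718 in HF+Ex livers, a difference of -1.58 ± 0.18 (limma adjusted p = 0.00041). Pparg, a nuclear receptor of fat storage, read 136, 204 and 229 against 345, 322 and 415 (-0.90, limma adjusted p = 0.0117). Plin4, a droplet coat protein, read 197, 178 and 193 against 340, 364 and 495 (-1.0), and Mogat1, which acylates monoacylglycerol, read 110, 123 and 125 against 279, 218 and 301 (-1.05). The groups were separate for each of these genes, and the restricted mice lay close together for Plin4 and Mogat1.

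Plin5 and Fitm2 completed the 8 called genes, with differences of -0.74 and -0.61. The main droplet coat gene Plin2 differed by -0.23 and the lipase gene Pnpla2 by -0.04, and neither was called. Over the 24 genes the median difference was -0.39, and 21 of 24 were negative. The mean level of the list was 9.20, 9.27 and 9.38 (log2) on the HF+CR arrays and 9.75, 9.77 and 10.1 on the HF+Ex arrays, with HF arrays between 9.78 and 10.1. The calls of Pparg were lost without HF+Ex 3 (limma adjusted p = 0.0695) or HF+CR 1 (0.0526). Without HF+Ex 1 alone the list had 7 called members, and without all 4 arrays with pancreatic transcripts 4. The median of the list moved to -0.22 without HF+Ex 3.

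**Figure D3:**
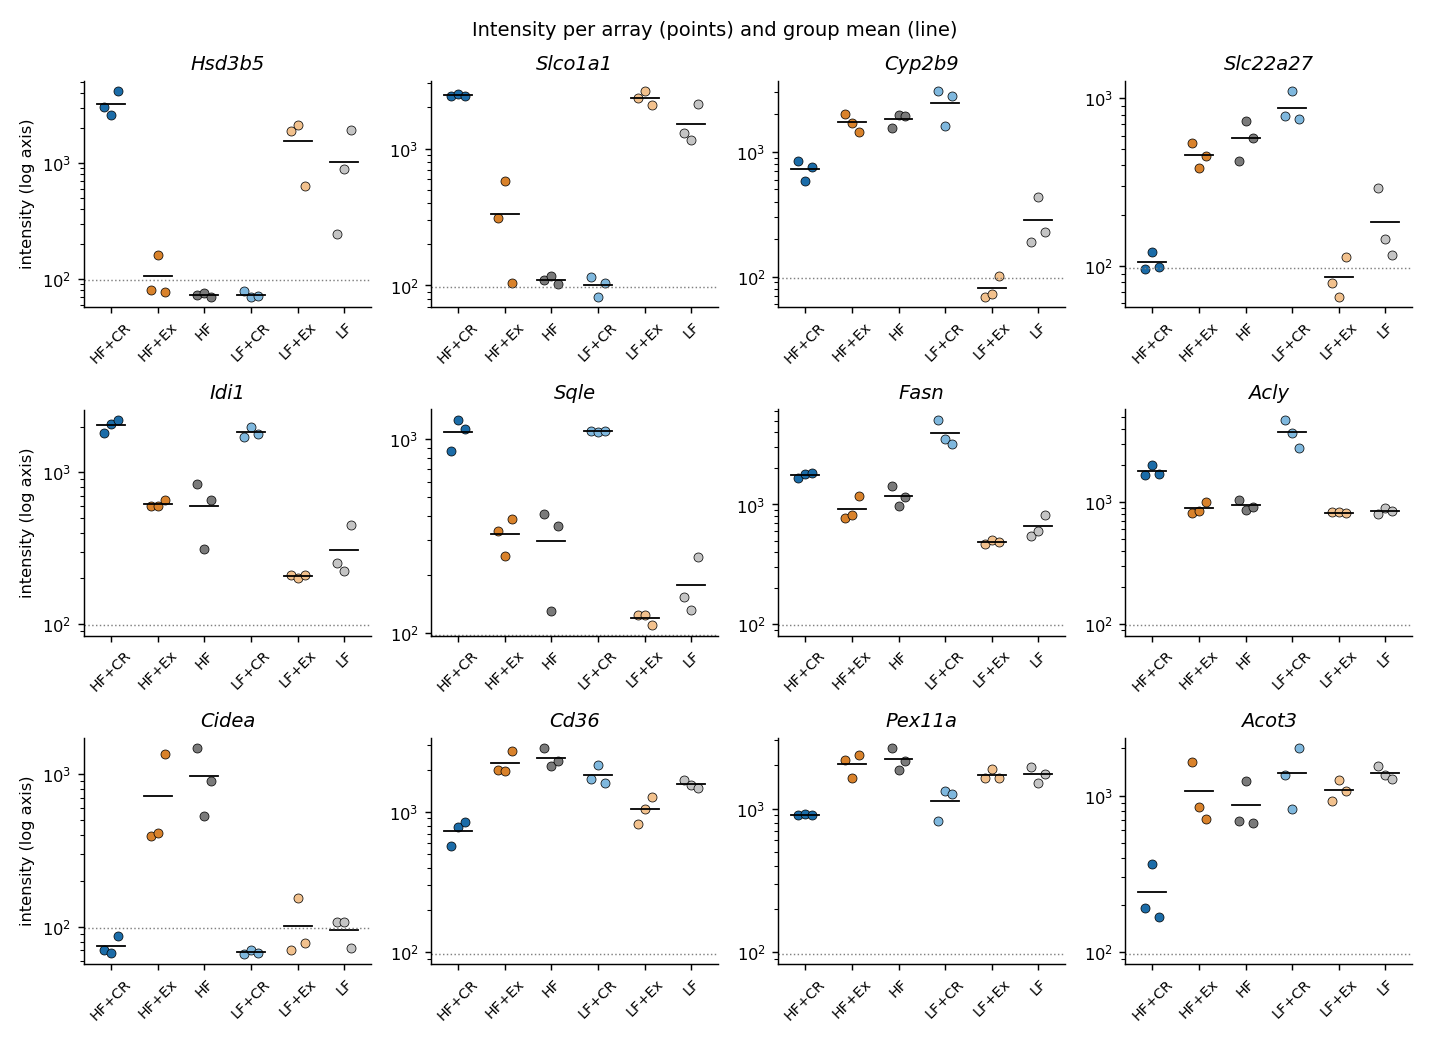
Intensity of 12 genes on all 18 arrays (points, log axis) with the mean of each group (line) and the highest dim limit (dotted line). HF+CR stands at the left and HF+Ex next to it. The HF+CR points lie apart from the HF+Ex points in every panel. For Hsd3b5, Slco1a1, Cyp2b9, Slc22a27 and Cd36 the LF+CR and LF+Ex points stand in the opposite order.

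Other large falls in HF+CR livers included genes of lipid handling outside this list. Apoa4, an apolipoprotein that rises with hepatic fat, read 1115, 1769 and 1768 in HF+CR livers against 3822, 3596 and 7935 in HF+Ex livers (-1.65, limma adjusted p = 0.0166). Osbpl3, an oxysterol-binding protein, read 66.9, 118 and 89.5 against 317, 261 and 656 (-1.91, limma adjusted p = 0.0248). Its HF+CR mean lay under the highest dim limit, and the difference was -2.08 with an offset of 1 and -1.54 with an offset of 64. Lgals1, which encodes the lectin galectin-1, read 554, 475 and 807 against 2566, 2148 and 3826 (-2.18, limma adjusted p = 0.00236). HF+Ex 3 was the highest array for all 3 genes, as for Cidea and Cidec, and also for the marker sums of several other cell types given with the cell type lists. Without it the call of Apoa4 (limma adjusted p = 0.0961) and that of Osbpl3 (0.136) were lost, and that of Lgals1 held. Both lost calls also fell away without HF+CR 1 (0.0775 for Apoa4 and 0.0995 for Osbpl3), and that of Osbpl3 without HF+Ex 1 (0.0631). Rcan2, an inhibitor of calcineurin, differed by -1.64, but another probe set of the gene above the dim limit moved by only -0.40.

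Of 18 genes of peroxisomal and microsomal fatty acid oxidation 6 were lower in HF+CR livers and none higher. Pex11a, which drives peroxisome division, read 904, 909 and 904 in HF+CR against 2165, 1632 and 2373 in HF+Ex, a difference of -1.15 ± 0.17 (limma adjusted p = 0.00289). Acot3, a peroxisomal acyl-CoA thioesterase that is also higher in female than in male mouse liver, read 192, 365 and 168 against 1640, 847 and 706 (-2.05, limma adjusted p = 0.00662). Acot4, its neighbour in the same gene cluster, read 129, 204 and 149 against 407, 280 and 304 (-0.98, limma adjusted p = 0.00622). The restricted mice were almost identical for Pex11a and spread more widely for Acot3, and HF+Ex 1 was the highest array for both thioesterases.

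Vnn1 (pantetheinase, -0.73), Acaa1a (-0.33) and Acaa1b (-0.30), both genes of peroxisomal thiolases, were the other called members of 18. The omega-hydroxylase genes Cyp4a14 (-0.44) and Cyp4a31 (-0.55) and the bifunctional enzyme Ehhadh (-0.19) were not called. In mitochondrial fatty acid oxidation 2 of 18 genes were lower, the carnitine carrier Slc25a20 (-0.41) and Hadh (-0.31), where the 2.72% called of all genes is under 1 gene. Cpt1a, the entry enzyme, differed by -0.35 (limma adjusted p = 0.0893). The peroxisomal list had 3 called members without HF+Ex 1 or without HF+CR 1, and 1 without the 4 arrays with pancreatic transcripts or when the 6 arrays were fitted alone. The call of Vnn1 was lost without HF+Ex 1, HF+Ex 2, HF+Ex 3 or HF+CR 1 (limma adjusted p of 0.0521 to 0.106), and HF+CR 1 was its lowest array, at 1495 beside 2702 and 2596.

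The largest rises were in genes that are higher in male than in female mouse liver. Hsd3b5, a steroid dehydrogenase of the male liver, read 3053, 2582 and 4177 in HF+CR livers against 79.9, 160 and 77.8 in HF+Ex livers, where 2 of 3 mice lay under the dim limit. The difference was 4.79 ± 0.55 (limma adjusted p = 0.00041), and 4.99 and 4.30 with offsets of 1 and 64. Slco1a1, an organic anion transporter, read 2413, 2512 and 2425 in HF+CR livers against 311, 577 and 105 in HF+Ex livers, a difference of 3.11 ± 0.38 (limma adjusted p = 0.000598). Restricted mice were alike for Slco1a1, whereas the running mice ranged from near the dim limit to several times that level.

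Cyp7b1, an oxysterol 7-alpha-hydroxylase of bile acid synthesis, read 5297, 4677 and 5599 in HF+CR livers against 2896, 3436 and 1898 in HF+Ex livers (0.95, limma adjusted p = 0.0111). C6, a component of the membrane attack complex, read 1631, 1649 and 2006 in HF+CR against 872, 1017 and 1076 in HF+Ex, and C8b, another component, 1440, 1543 and 1546 against 904, 886 and 572. Their differences were 0.82 and 0.95. Among the 18 male-biased genes 16 had a positive difference, and the median was 0.50. Elovl3 (1.35), Egfr (0.97) and Cyp4a12a (0.37) did not pass the test, with limma adjusted p-values of 0.122, 0.128 and 0.688. Clec2h, a C-type lectin, was a further large rise, at 295, 283 and 360 in HF+CR against 67.5, 108 and 99.1 in HF+Ex (1.63, limma adjusted p = 0.000726). Its HF+Ex mean lay under the highest dim limit, and the difference was 1.78 with an offset of 1 and 1.28 with an offset of 64. Cdh1, which encodes the adhesion protein E-cadherin, read 590, 502 and 510 in HF+CR against 109, 122 and 353 in HF+Ex (1.57, limma adjusted p = 0.02), and its call was lost without HF+Ex 1, HF+Ex 2, HF+CR 1 or HF+CR 2 (0.0559 to 0.105). Iglv1, an immunoglobulin light chain segment, differed by 1.61, but another probe set of it above the dim limit moved by only 0.11.

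On the other side, 5 female-biased genes were lower in HF+CR livers. Slc22a27, an organic anion transporter, read 95.9, 121 and 98.0 in HF+CR against 541, 382 and 456 in HF+Ex, a difference of -1.97 ± 0.27 (limma adjusted p = 0.00162). Cyp2b9, a cytochrome of female mouse liver, read 849, 583 and 753 against 1998, 1713 and 1448 (-1.23 ± 0.27, limma adjusted p = 0.0234). Cyp2b13 read 87.9, 83.4 and 80.8, all under the dim limit, against 228, 202 and 257 (-1.29, limma adjusted p = 0.0426). The groups were separate for all 3 genes, and for Slc22a27 and Cyp2b13 the restricted mice were at or under the dim limit or a little above it.

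Trim24 (-1.03) and Acot3 were the other called female-biased genes. Probe sets of the Cyp2b and Slc22a families can share sequence. The mean level of the 16 female-biased genes was 7.66, 7.69 and 7.51 (log2) on the HF+CR arrays against 8.58, 8.16 and 8.22 on the HF+Ex arrays, and that of the male-biased genes 10.8, 10.8 and 10.9 against 9.93, 10.1 and 9.77. Both sets of arrays were separate. The female-biased list had 2 called members without HF+Ex 1, HF+Ex 3 or HF+CR 2 and 3 without HF+CR 1 or HF+CR 3, and the male-biased list 3 without HF+Ex 3, HF+CR 1 or HF+CR 2. The call of Cyp2b13 was lost without any 1 of the 6 arrays (limma adjusted p of 0.0557 to 0.164), and that of Cyp2b9 without HF+Ex 1, HF+Ex 3 or HF+CR 2 (0.0532 to 0.108). Without the 4 arrays with pancreatic transcripts, 1 female-biased and 2 male-biased genes were called, beside 2 and 4 without HF+Ex 1 alone.

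**Figure D4:**
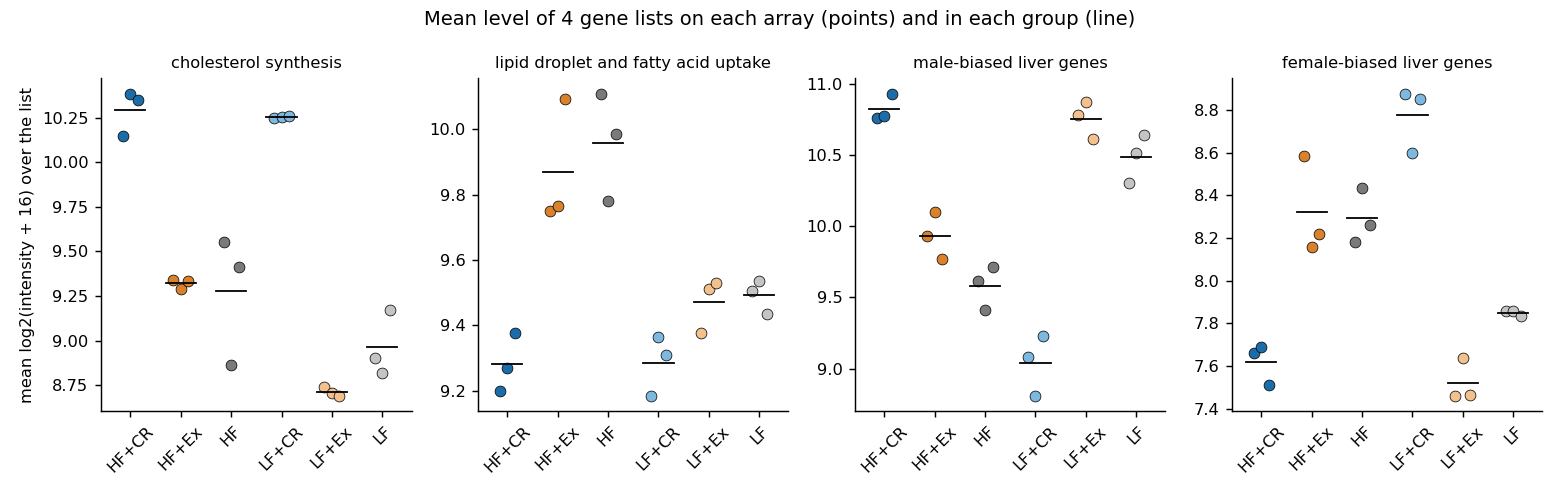
Mean log2(intensity + 16) over the members of 4 gene lists on each array (points) and in each group (line). HF+CR arrays lie above HF+Ex arrays for cholesterol synthesis and the male-biased genes and below them for lipid droplets and the female-biased genes. For the male-biased and female-biased genes LF+CR and LF+Ex lie in the opposite order.

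None of 23 genes of growth hormone, insulin and IGF1 signalling was called, where 2.72% of all genes were, a share under 1 gene in a list of this size. Igf1, the main liver target of growth hormone, read 4645, 4214 and 4679 in HF+CR against 4107, 4289 and 3724 in HF+Ex (0.16, limma adjusted p = 0.287). Its 3 other probe sets above the dim limit moved by -0.14, -0.11 and -0.11. Socs2, a feedback inhibitor induced by growth hormone, differed by -0.51 ± 0.36 (limma adjusted p = 0.398), and the restricted mice ranged from 133 to 352. The other Socs2 probe sets above the dim limit moved by -0.65, 0.04, 0.19 and -0.01. Igfbp1 (0.94 ± 0.48, limma adjusted p = 0.258) and Igfbp2 (0.70 ± 0.20, 0.069), binding proteins of IGF1 that rise when insulin is low, had groups that did not overlap but did not pass. The spread between mice leaves wide limits for these 3 genes.

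In the list of gluconeogenesis and the fasting response 2 of 17 genes were called, Tat higher and Gpt2 lower. The 2.72% called of all genes is under 1 gene in a list of this size. Pck1 and G6pc, enzymes of glucose production, were not called and differed by 0.23 ± 0.16 and 0.37 ± 0.32, and G6pc was 1273 in HF+CR 2 beside 3414 and 3474 in the other restricted mice. Fgf21, Angptl4, Pdk4 and Ppargc1a, which rise in fasting, differed by -0.48, -0.01, -0.56 and -0.14 and were not called either. Tat, tyrosine aminotransferase and a target of glucocorticoids, read 5095, 4267 and 3643 in HF+CR against 2940, 2700 and 2187 in HF+Ex (0.73 ± 0.12, limma adjusted p = 0.00551). Gpt2, the mitochondrial alanine aminotransferase, averaged 2292 in HF+CR and 3503 in HF+Ex, a difference of -0.61 ± 0.15 with groups that did not overlap (limma adjusted p = 0.042). Sirt1, the NAD-dependent deacetylase often studied in restriction, differed by 0.08 ± 0.09, and Nampt, which makes NAD from nicotinamide, was lower by a called -0.80.

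Detoxification and haem genes moved in single members. Cyp2c38, an arachidonate-metabolising cytochrome, read 428, 626 and 417 in HF+CR livers against 1464, 1329 and 1293 in HF+Ex livers, a difference of -1.47 ± 0.18 (limma adjusted p = 0.000678). Alas1, the rate-limiting enzyme of haem synthesis, read 2031, 1996 and 2105 against 6060, 4494 and 3765 (-1.19, limma adjusted p = 0.0153). Cyp1a2, which oxidises caffeine and aromatic amines, read 4282, 4591 and 4921 against 2847, 2802 and 1662 (0.95), with a limma adjusted p of 0.0481 that lay just under the threshold. Cyp2c39 differed by -0.46. The groups were separate for each of the 4 genes. The call of Cyp1a2 was lost under 13 other settings, among them without HF+Ex 1, HF+Ex 3, HF+CR 1, HF+CR 2 or HF+CR 3 (0.0792 to 0.223). The call of Alas1 was lost without HF+Ex 1 (0.0852), HF+CR 1 (0.0548) or HF+CR 2 (0.0579), and that of Cyp2c39 without HF+Ex 1, HF+Ex 3, HF+CR 1 or HF+CR 3 (0.0515 to 0.108).

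Other lists held few called members, and the 2.72% called of all genes is under 1 gene in each of them. F11, coagulation factor XI, read 1111, 1010 and 1136 in HF+CR livers against 478, 644 and 479 in HF+Ex livers (1.02, limma adjusted p = 0.0155), but with C6 and C8b it made 3 called genes of 24 in complement and coagulation, and none of the 3 was called without HF+Ex 3 or without HF+CR 1. The call of F11 was also lost without HF+Ex 1 (limma adjusted p = 0.0783), that of C8b without HF+CR 2 (0.0672) and that of C6 without HF+Ex 1 (0.105), HF+CR 2 (0.0559) or HF+CR 3 (0.058). In the urea cycle and ammonia list Cps1, the first enzyme of the cycle, was higher (0.30), and glutamine synthetase (Glul, -0.27) and the ammonia transporter Rhbg (-0.58) were lower. Glul and Rhbg are expressed by the hepatocytes around the central vein. The call of Cps1 was lost without HF+Ex 1, HF+Ex 3, HF+CR 1 or HF+CR 2 (limma adjusted p of 0.11 to 0.215), that of Rhbg without HF+Ex 3 or HF+CR 1 (0.0828 and 0.0631) and that of Glul without HF+Ex 1 (0.0611). Tfrc, the transferrin receptor, was lower by a called -1.22, and Ifit1, an interferon-induced gene, by -0.91, each the only called gene of its list. Bile acid synthesis had Cyp7b1 higher and the basolateral transporter Abcc3 lower (-0.58), and Cyp7a1, the rate-limiting enzyme of the classic pathway, differed by -1.25 ± 0.45 without passing (limma adjusted p = 0.137).

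In 11 further pathway lists no member passed the test, where 2.72% of all genes did, a share that is under 1 gene in lists of this size. They were glycolysis and glycogen (13 genes), NRF2 and glutathione (23), folding in the endoplasmic reticulum (26), the integrated stress response (15), heat shock (21), MHC class II (8), the circadian clock (17), oxidative phosphorylation (25), cytosolic ribosome (14), proliferation (16) and hepatokines (15). Unadjusted p-values under 0.05 were reached by 3180 of the 14198 genes. Of the NRF2 and glutathione genes 22 of 23 had a negative difference, with a median of -0.19, whereas 8920 of all 14198 genes had a positive one. Hspa5, the main chaperone of the endoplasmic reticulum, differed by -0.22 ± 0.14. The MHC class II genes had a median of -0.61 with 6 of 8 negative.

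Markers of 16 cell types were examined in lists of 3 to 14 tested genes. The 7 measured hepatocyte markers, genes of plasma proteins and liver enzymes, were all above the dim limit and summed to 76565 to 79484 intensity units in HF+CR livers and 73459 to 76413 in HF+Ex livers. In the 16 lists only Tat in the hepatocyte list and Lyve1, a receptor of sinusoidal endothelium (-1.07), were called. Of all genes tested 2.72% were called, a share under 1 gene in each list, so that the small count is no result about the markers. The Kupffer cell list (12 genes) summed to 6948 to 8239 in HF+CR and 7091 to 12040 in HF+Ex, and the stellate cell and matrix list (14 genes) to 6765 to 7135 and 6592 to 10516. In both lists the highest value belonged to HF+Ex 3. HF+Ex 3 was also the highest array for recruited or lipid-associated macrophages (3411, against 1580 to 2057 on the other 5 arrays), mesothelial cells (3909, against 2461 to 2934) and adipocytes (1117, against 616 to 870), and HF+CR 1 was the highest for cholangiocytes (1246, against 545 to 650). The skeletal muscle list reached 2329 on HF+Ex 2, beside 736 to 903 on the other 5 arrays, and its 4 tested genes had a median difference of -0.38. The pancreatic acinar list (10 genes) summed to 2059 to 2624 in HF+CR and to 1142 to 8325 in HF+Ex, with the highest value on HF+Ex 1, and its median difference was -0.89, with 9 of 10 negative and no gene called. The part of these transcripts in the differences above was not tested beyond the fits without those arrays.

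The mice on the high-fat diet without a wheel lay nearer to the running mice than to the restricted mice for most genes that separated HF+CR from HF+Ex. The HF mean was nearer to the HF+Ex mean than to the HF+CR mean for 380 of the 386 called genes (98.4%), against 74.3% of all genes tested. Hsd3b5 averaged 72.9 in HF livers, Cidea 973, Cd36 2431 and Idi1 604, each nearer to HF+Ex. The mice on the low-fat diet were nearer to HF+CR for 170 of the 386 genes (44.0%), against 55.4% of all genes. HF 1 and HF+Ex 3, which belong to different groups, had a correlation of 0.995 over all genes. The lowest correlation within a group was 0.985 in HF+CR and 0.983 in HF+Ex. Other pairs are not given, so these values do not show whether HF 1 and HF+Ex 3 were unusually alike.

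The same contrast on the low-fat diet shares no arrays with this one. LF+CR and LF+Ex livers differed in 1321 genes (9.30% of those tested), 593 higher (4.18%) and 728 lower (5.13%) in LF+CR. Of the 386 genes called on the high-fat diet 143 were also called on the low-fat diet (37.0% of the high-fat calls and 10.8% of the low-fat calls), 99 in the same direction and 44 in the opposite one. Across all 14198 genes, which are not independent, the differences on the 2 diets had a Pearson r of -0.06 and a Spearman rho of 0.04.

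The test of the difference itself, the interaction of regimen and diet, called 600 genes (4.23%), 352 with a more positive difference on the high-fat diet (2.48%) and 248 with a more negative one (1.75%). In 526 of the 600 the difference had opposite signs on the 2 diets, against 45.2% of all genes tested. Choosing genes by a large interaction favours opposite signs. Both differences were called in 50 of the 600, with opposite signs in 44 and the same sign in 6. Hsd3b5 had the largest interaction, 8.75 ± 0.77 on the log2 scale (limma adjusted p = 9.56e-06). On the low-fat diet it read 78.3, 69.8 and 70.6 in LF+CR livers against 1878, 2150 and 632 in LF+Ex livers, the opposite order to the high-fat diet. Slco1a1 read 116, 82.4 and 105 in LF+CR against 2338, 2619 and 2078 in LF+Ex, with an interaction of 7.44 ± 0.53 (limma adjusted p = 2.05e-06). Restriction went with high levels of both genes on the high-fat diet and with levels near the dim limit on the low-fat diet.

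Called interactions of the female-biased genes were negative. Cyp2b9 read 3055, 1607 and 2785 in LF+CR livers against 68.8, 73.2 and 101 in LF+Ex livers, and its interaction was -5.87 ± 0.38 (limma adjusted p = 9.46e-07). Slc22a27 read 783, 1101 and 754 in LF+CR against 79.3, 65.3 and 113 in LF+Ex, with an interaction of -5.11 ± 0.38 (limma adjusted p = 2.62e-06). Over the lists, 11 of 18 male-biased genes had a positive and 1 (Ces2e) a negative called interaction, and 10 of 16 female-biased genes had a negative one. The median interaction was 2.01 for the male-biased and -1.41 for the female-biased genes.

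In cholesterol synthesis 15 of 17 genes were higher in LF+CR than in LF+Ex, with a median of 1.42, beside the 14 higher on the high-fat diet. The interaction was called for Pmvk (-0.64) and Fdps (-1.61), whose differences were larger on the low-fat diet. For Idi1 the difference on the low-fat diet was 3.06 and the interaction -1.37 ± 0.38 (limma adjusted p = 0.0532). Fatty acid synthesis showed more called interactions: Fasn differed by 2.96 on the low-fat diet (interaction -2.01, limma adjusted p = 0.000385) and Acly by 2.13 (interaction -1.12, 0.0045), and in all 6 genes of the list had a negative called interaction and 1 a positive one. Acaca (1.79) and Elovl6 (2.31) were higher in LF+CR than in LF+Ex livers, with called interactions of -1.53 and -2.19.

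Cd36 and Pparg were lower under restriction on the high-fat diet and higher on the low-fat diet. Cd36 read 1725, 2175 and 1604 in LF+CR livers against 820, 1047 and 1280 in LF+Ex livers, a difference of 0.81, and the interaction was -2.38 ± 0.25 (limma adjusted p = 5.62e-05). Pparg differed by 0.69 on the low-fat diet, with an interaction of -1.59 ± 0.24 (limma adjusted p = 0.00131). Cidea was under the dim limit in LF+CR livers (66.4, 70.5 and 67.8) and read 70.0, 154 and 78.3 in LF+Ex livers, and its interaction was -2.37 (limma adjusted p = 0.0274), a call that was lost without HF+CR 1, HF+CR 2, LF+Ex 1, LF+Ex 3, LF+CR 1 or LF+CR 2 (0.0532 to 0.0793). It was high in HF+Ex and HF livers and averaged near or under the limit in the other 4 groups. Pex11a was lower under restriction on both diets (-0.62 on the low-fat diet), and its interaction was not called (-0.53, limma adjusted p = 0.247).

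**Figure D5:**
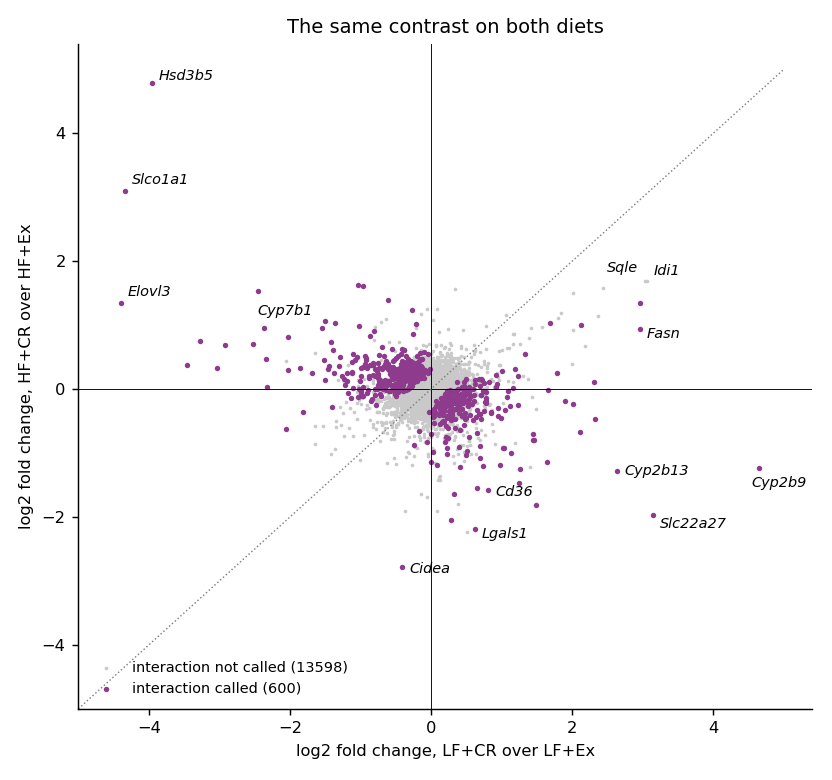
Each point is 1 of 14198 genes, with the log2 fold change of LF+CR over LF+Ex on the horizontal axis and that of HF+CR over HF+Ex on the vertical axis. Purple points are the 600 genes with a called interaction, and the dotted line marks equal changes on both diets. Hsd3b5, Slco1a1 and Elovl3 lie at the upper left, Cyp2b9 and Slc22a27 at the lower right, and Idi1 and Sqle at the upper right.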

How the data were processed

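Liver RNA of 18 mice was hybridised to Affymetrix Mouse Genome arrays. The values are intensities on a linear scale, deposited by the authors as 1 table, and the tool and normalization that made them are not stated in any source used here. Array means lay between 306.9 and 309.8 and array medians lay within 0.152 of each other in log2 (limit for use as deposited: 0.2).

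Of 45101 probe sets, 64 controls, 932 with several symbols and 9160 with none were left out. The brightest of the 34945 remaining probe sets stood for each of 18193 genes, and 3995 genes were too dim. Log2(intensity + 16) was fitted with limma 3.58.1 in R 4.3.3, with 1 mean per group over 18 arrays (12 residual and 3.61 prior degrees of freedom), Benjamini-Hochberg adjustment over 14198 genes and a threshold of 0.05. Each array is another mouse, per the labels and the design text.

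Genes named are the 8 largest called rises and falls without overlap, up to 4 called members of each list with at least 3, a fixed set of 36 genes (31 tested, 11 called), and the 6 largest called interactions in each direction. Other genes, named beside small counts or as uncalled members of a list, were chosen after their values were seen. The 50 lists (813 genes, 88 without a probe set of their own and 21 too dim) were chosen with earlier results of these data known, and are described by counts and medians only. Of 42 called named genes 18 had another probe set above the dim limit, and in 2 it moved under 25% as far. Alternatives were quantile normalization, centring, other offsets and filters, probe set means, a trended robust variance, array weights, fits of the compared groups only, a replicate block and each array left out. 3 fits were added once the values were known: leaving out the 4 arrays with pancreatic transcripts, leaving out the 3 outermost arrays, and adjusting for the clock difference. Same-numbered arrays of HF+CR and HF+Ex deviated with correlations of 0.083, -0.109 and 0.121. The labels do not say that the numbers mark pairs, and these correlations cannot settle it. The pipeline was tested on simulated data. Promoters came from RefSeq, build GRCm38.p6.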

Additional observations from a re-analysis of the deposited data

Results flagged for a closer look

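For 32 of the 68 named genes the difference between restriction and running itself differed between the diets, by the limma interaction at an adjusted p under 0.05. The values below are the interaction on the log2 scale, the high-fat difference (HF+CR minus HF+Ex) minus the low-fat difference (LF+CR minus LF+Ex). The named genes include those chosen for a large interaction, so that their share is no measure of how common it is, and 4.23% of all genes tested passed.

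In 12 genes the difference was more positive on the high-fat diet. Besides Hsd3b5 (8.75) and Slco1a1 (7.44), these were Elovl3 (5.75), a fatty acid elongase of male liver that read 2176, 2405 and 4086 in HF+CR, 931, 2251 and 594 in HF+Ex, 299, 72.3 and 194 in LF+CR, and 3464, 3294 and 4739 in LF+Ex. Pimreg (4.03), Serpina4-ps1 (4.00), Cyp4a12a (3.83), Cyp7b1 (3.32), C6 (2.85), Clec2h (2.66), Iglv1 (2.58), C8b (2.50) and F11 (1.23) followed. The call of F11 was lost without HF+Ex 1, HF+Ex 3, HF+CR 1, HF+CR 3, LF+Ex 1, LF+Ex 2 or LF+CR 1 (limma adjusted p of 0.0509 to 0.071), and that of Cyp4a12a without the 4 arrays with pancreatic transcripts (0.0791). Elovl3, Pimreg, Serpina4-ps1 and Cyp4a12a did not pass the test on the high-fat diet and were lower in LF+CR than in LF+Ex on the low-fat diet.

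In 20 genes the difference was more negative on the high-fat diet. The largest were Cyp2b9 (-5.87), Slc22a27 (-5.11), Cyp2b13 (-3.93) and Rad51b (-3.29), a DNA repair gene that read 73.0, 155 and 122 in HF+CR against 363, 303 and 731 in HF+Ex. Another probe set of Rad51b above the dim limit moved by 0.11 between these groups, beside -1.81 for the one used, and its interaction was not called without the 3 outermost arrays (limma adjusted p = 0.0878). Cyp2b10, a target of the nuclear receptor CAR, had -2.78, and Thrsp, a lipogenic gene, had -2.80. The others in lipid metabolism were Fasn (-2.01), Acly (-1.12), Cd36 (-2.38), Pparg (-1.59), Cidea (-2.37), Acot3 (-2.33), Acot4 (-1.0) and Cyp7a1 (-2.52). Lgals1 (-2.80), Cyp2c38 (-2.72), Rcan2 (-1.96), Cyp2c39 (-1.17), Rhbg (-0.78) and Glul (-0.38) made up the rest. For Fasn and Acly the difference was positive on both diets and larger on the low-fat diet, and for Cidea it was negative on both.

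Several of these negative calls rested on single arrays. That of Thrsp was lost without HF+Ex 1, HF+Ex 3, HF+CR 3, LF+Ex 1, LF+Ex 3 or LF+CR 1 (limma adjusted p of 0.0727 to 0.0858), with the trended variance (0.0576), with the replicate block (0.0533) and in the fit of the 12 arrays compared (0.0605). That of Cyp7a1 was lost without HF+Ex 1, HF+Ex 2, HF+CR 2, HF+CR 3, LF+Ex 1, LF+Ex 3 or LF+CR 2 (0.0578 to 0.0952), with probe set means (0.0602), with the trended variance (0.0634) and in the fit of the 12 arrays (0.0868). That of Acot4 was lost without HF+Ex 1, HF+CR 1, HF+CR 3 or LF+Ex 1 (0.0561 to 0.0616), that of Cidea without HF+CR 1, HF+CR 2, LF+Ex 1, LF+Ex 3, LF+CR 1 or LF+CR 2 (0.0532 to 0.0793), and that of Glul with probe set means (0.14). Without the 4 arrays with pancreatic transcripts the calls of Cidea, Acot3, Acot4, Rhbg, Glul, Cyp7a1 and Thrsp were lost (0.0603 to 0.187), and without the 3 outermost arrays those of F11, Acot4, Cyp7a1 and Thrsp as well (0.0667 to 0.101).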

How the results depend on the processing

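The 386 genes called between HF+CR and HF+Ex (200 higher, 186 lower) kept their sign wherever they were measured, except that 383 of 386 did so with the mean of the probe sets. In the fits with fewer arrays this was fixed in advance, since the groups did not overlap. The number of called genes moved more. With arrays centred on their median 90 of 334 called genes were higher (26.9%, against 51.8% of the 386), as all values of an array shift together. Array weights gave 1066 (661 higher, 405 lower), the replicate block 246 (115 higher), and a fit of only the 6 arrays 94 (38 higher, 56 lower). The fit without the 4 arrays with pancreatic transcripts gave 40 (20 higher, 20 lower), without the 3 arrays farthest out on the first component 193 (80 higher, 113 lower), and the clock covariate 847 (526 higher, 321 lower). Leaving out 1 array gave 126 to 471 genes, 49 to 303 of them higher and 71 to 213 lower. The interaction of 600 genes (352 positive, 248 negative) became 1349 (831 and 518) with array weights, 196 (126 and 70) without the 4 arrays, 345 (196 and 149) without the 3 arrays, and 901 with 588 positive under the clock covariate. It gave 345 to 775 genes with 1 array left out (209 to 440 positive and 136 to 336 negative), with 404 genes without HF+Ex 1, 345 without HF+Ex 3 and 373 without LF+Ex 1. Some of these fits hold fewer arrays, and beyond that the cause was not tested.

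Of 42 called named genes none changed sign, which could not happen in fits with fewer arrays, since their groups did not overlap. With 1 array left out 188 of 252 values stayed called and 64 did not, and 521 of 588 did so under the other settings. The 13 genes called under every setting run were Acly, Cd36, Cidea, Clec2h, Cyp2c38, Hsd3b5, Iglv1, Lgals1, Pex11a, Plin4, Rcan2, Slc22a27 and Slco1a1. The replicate block, tried although the labels do not say that the numbers mark pairs, changed the counts as given. Signal near background limits what can be said of levels under the dim limit.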
